A study of Mus musculus with 11 samples.

Results

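Skeletal muscle transcripts were measured through 9 genes of the contractile apparatus and its energy supply, Acta1, Ckm, Ttn, Atp2a1, Mylpf, Tnnt3, Tnnc2, Myh4 and Myh1, out of 22609 genes listed. The 9 were chosen by name as adult skeletal muscle genes with earlier results of the same libraries known, so their levels are given as a description. All 9 passed the filter of at least 10 reads over the 11 libraries, as did 17557 genes in all. The libraries hold polyadenylated RNA from whole tissue labelled cerebellar hemisphere, from untreated mice of mixed sex on a mixed C57BL/6J;129 background, aged 30 days by one label and 32 by another. Control mice (n = 3) carried floxed Nfasc and AnkG alleles (NfascFx/Fx;AnkGFx/Fx by the series design) without Cre, although the results text of the study writes the control with Pcp2-Cre. NFKO mice (n = 3) were Pcp2-Cre;NfascFx/Fx, AnkGKO mice (n = 2) were Pcp2-Cre;AnkGFx/Fx, and DKO mice (n = 3) were Pcp2-Cre;NfascFx/Fx;AnkGFx/Fx. The methods of the study name a further AnkGKO mouse, which was not analysed here. Pcp2-Cre drives recombination mainly in Purkinje cells, which are 1 cell type among many in these libraries. All 11 libraries carry the same batch label, and their replicate numbers are given without saying what they stand for.

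Skeletal muscle fibres are packed with sarcomeres, in which thick filaments of myosin pull on thin filaments of actin. Calcium released from the sarcoplasmic reticulum binds troponin on the thin filament and permits contraction, and a calcium pump returns it to the store. Adult limb and trunk muscles mix fibre types that are told apart by their myosin heavy chain, with MyHC-IIb (Myh4), MyHC-IIx (Myh1) and MyHC-IIa (Myh2) in fast fibres and the slow form (Myh7) in slow fibres. Brain and spinal cord hold no skeletal muscle fibres.

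Promoter sequences are shown for the 4 genes that held a match of the MCAT, MEF2 or CArG motifs described below. Of the 9, 8 had a promoter in the RefSeq table for GRCm38.p6, and Tnnt3 did not. The 300-base windows, 250 bases before and 50 after the annotated start, were searched on both strands for motifs of muscle promoters. These were the E-box (CANNTG), the TATA box (TATAAA), the MCAT motif (CATTCC), the MEF2 site and the CArG box, and matches of different motifs may overlap. Below, the 250 bases before the start are printed 5′ to 3′ in lower case, with MCAT, MEF2 and CArG matches in capitals. The windows of Ckm, Atp2a1, Mylpf and Tnnc2 held none of these motifs and are not printed, so the printed sequences are not typical of the 9. Acta1 lies at chr8:123894776-123895025 (minus strand), Ttn at chr2:76982548-76982797 (minus strand), Myh4 at chr11:67237562-67237811 (plus strand) and Myh1 at chr11:67199852-67200101 (plus strand), all in GRCm38.p6.
Acta1: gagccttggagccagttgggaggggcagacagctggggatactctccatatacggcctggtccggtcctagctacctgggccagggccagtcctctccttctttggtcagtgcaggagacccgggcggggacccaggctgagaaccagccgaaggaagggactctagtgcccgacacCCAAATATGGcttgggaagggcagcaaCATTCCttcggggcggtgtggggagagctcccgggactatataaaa
Ttn: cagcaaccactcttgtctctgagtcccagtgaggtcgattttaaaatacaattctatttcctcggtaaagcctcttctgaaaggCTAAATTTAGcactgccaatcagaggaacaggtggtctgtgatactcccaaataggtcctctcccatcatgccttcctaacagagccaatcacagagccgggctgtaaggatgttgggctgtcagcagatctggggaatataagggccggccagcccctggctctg
Myh4: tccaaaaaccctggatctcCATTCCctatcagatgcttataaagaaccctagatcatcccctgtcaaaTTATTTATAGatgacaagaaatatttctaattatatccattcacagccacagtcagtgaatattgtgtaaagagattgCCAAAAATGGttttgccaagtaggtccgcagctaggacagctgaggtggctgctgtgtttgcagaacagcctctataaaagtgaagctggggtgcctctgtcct
Myh1: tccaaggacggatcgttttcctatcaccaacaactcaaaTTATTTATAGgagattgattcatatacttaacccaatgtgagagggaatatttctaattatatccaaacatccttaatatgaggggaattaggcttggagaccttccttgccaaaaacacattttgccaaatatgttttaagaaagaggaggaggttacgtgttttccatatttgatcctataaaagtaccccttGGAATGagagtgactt
In Acta1 the capitals mark a CArG box, CCAAATATGG, followed by an MCAT motif. The promoters of Myh4 and Myh1 both hold the same MEF2 match, TTATTTATAG, and Ttn holds another, CTAAATTTAG. In Myh1 the second capital run, GGAATG, is the MCAT motif on the other strand, and the MCAT match of Ttn lies after the start and is not printed. Over the windows, 3 of 8 genes had a MEF2 site against 3.19% of 32851 promoters, 2 had a CArG box against 1.63%, 4 an MCAT motif against 14.7%, 3 a TATA box against 13.6% and 7 an E-box against 72.3%. A match describes letters only, and binding was not measured here.

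Reads from the 9 genes fell into 2 ranges, which describe the values and are no groups of the study. In 6 libraries, Control 1 to 3, NFKO 1, NFKO 2 and DKO 2, their summed level was 39.1 to 507 CPM ( the reads of a gene over the reads on all genes after TMM scaling). In the other 5 libraries, NFKO 3, AnkGKO 1 and 2, DKO 1 and DKO 3, it was 3.06 to 4.004 CPM. In order, the sums were 507 CPM in NFKO 2, 222 in DKO 2, 92.8 in NFKO 1, 71.7 in Control 2, 39.8 in Control 1 and 39.1 in Control 3, then 4.004 in DKO 3, 3.51 in AnkGKO 1, 3.33 in NFKO 3, 3.22 in DKO 1 and 3.06 in AnkGKO 2. NFKO and DKO each hold libraries of both ranges, control only the higher and AnkGKO only the lower. The highest sum was 165-fold above the lowest. Even in NFKO 2 the 9 genes took only 0.0525% of the reads on genes (26311 reads, 95% exact binomial interval 0.0519 to 0.0531%), and in AnkGKO 2 they took 0.000297% (141 reads, interval 0.000250 to 0.000351%). Such intervals cover counting error only. In whole tissue, fewer muscle cells and less RNA per cell cannot be told apart.

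**Figure D1:**
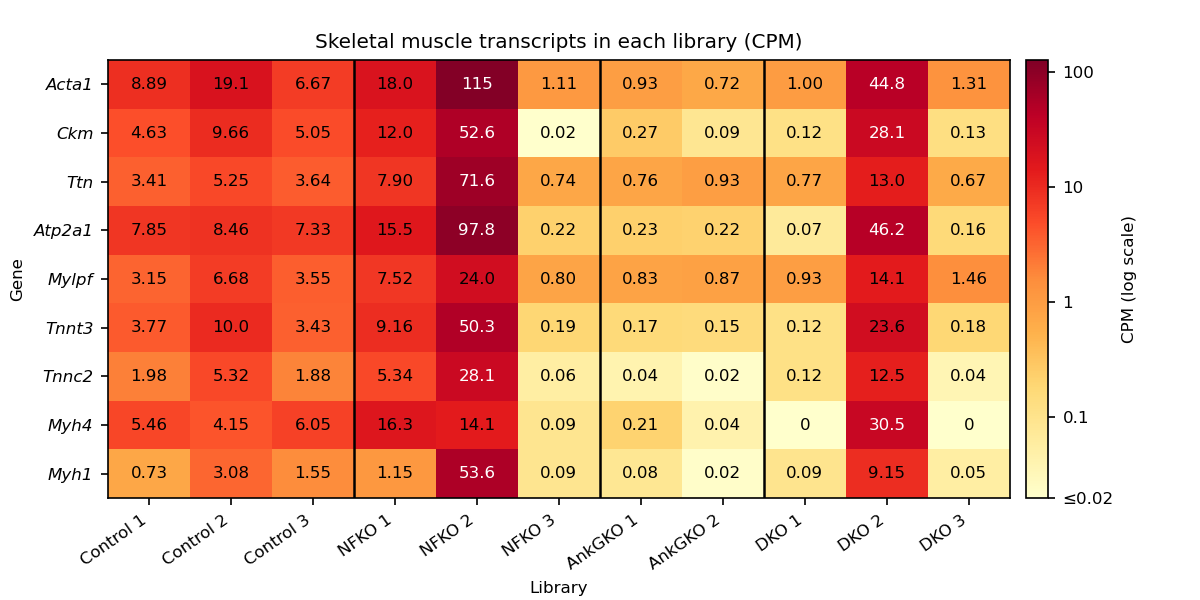
Level of each of the 9 skeletal muscle genes (rows) in each of the 11 libraries (columns) in CPM, written in each cell and coloured on a log scale, with vertical lines between genotypes. All 9 genes are higher in the 3 control libraries, NFKO 1, NFKO 2 and DKO 2 than in NFKO 3, AnkGKO 1 and 2, DKO 1 and DKO 3.

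Acta1 encodes skeletal alpha-actin, the thin filament itself (chr8:124618501-124623661, minus strand, GRCm39, as for all gene positions that follow). It was at 8.89, 19.1 and 6.67 CPM in Control 1, 2 and 3. The NFKO libraries had 18.0, 115 and 1.11 CPM and the AnkGKO libraries 0.93 and 0.72 CPM. In DKO 1, 2 and 3 it reached 1.003, 44.8 and 1.31 CPM. The AnkGKO libraries lay below every control library, while NFKO and DKO each spanned the control range from below to above.

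Tnnt3 and Tnnc2 encode the fast troponin T, which anchors troponin to tropomyosin, and the fast troponin C, which binds calcium. Tnnt3 (chr7:142048605-142070280, plus strand) was at 3.77, 10.01 and 3.43 CPM in control, 9.16, 50.3 and 0.19 in NFKO, 0.17 and 0.15 in AnkGKO, and 0.12, 23.6 and 0.18 in DKO. Tnnc2 (chr2:164619075-164621887, minus strand) was at 1.98, 5.32 and 1.88 CPM in control, 5.34, 28.1 and 0.056 in NFKO, 0.041 and 0.022 in AnkGKO, and 0.12, 12.5 and 0.036 in DKO. In the 5 low libraries Tnnc2 rested on 1 to 5 reads, near the floor of 3 reads, which equals 0.0537 to 0.0771 CPM at these depths. Both genes had NFKO 2 and DKO 2 as their highest libraries, as Acta1 did.

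Myh4 and Myh1 encode the heavy chains of MyHC-IIb and MyHC-IIx, and Mylpf the regulatory light chain of fast muscle. Myh4 (chr11:67128336-67151274, plus strand) was at 5.46, 4.15 and 6.05 CPM in control, 16.3, 14.1 and 0.093 in NFKO, 0.21 and 0.043 in AnkGKO, and 30.5 CPM in DKO 2. In DKO 1 and DKO 3 no read was counted on Myh4, which allows up to 0.0688 and 0.0537 CPM. Myh1 (chr11:67089132-67116631, plus strand) was at 0.73, 3.08 and 1.55 CPM in control, 1.15, 53.6 and 0.093 in NFKO, 0.083 and 0.022 in AnkGKO, and 0.093, 9.15 and 0.055 in DKO. Myh4 was the only one of the 9 with its highest level in DKO 2, and the other 8 were highest in NFKO 2. Mylpf (chr7:126807207-126813470, plus strand) was at 3.15, 6.68 and 3.55 CPM in control, 7.52, 24.0 and 0.80 in NFKO, 0.83 and 0.87 in AnkGKO, and 0.93, 14.1 and 1.46 in DKO. Its sixth and seventh libraries differed by only 2.16-fold, the smallest such gap of the 9.

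Ttn encodes titin, the giant elastic filament of the sarcomere. Ttn (chr2:76534136-76812891, minus strand) was at 3.41, 5.25 and 3.64 CPM in control, 7.90, 71.6 and 0.74 in NFKO, 0.76 and 0.93 in AnkGKO, and 0.77, 12.96 and 0.67 in DKO. NFKO 2 stood further above DKO 2 than for Acta1 or Ckm.

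Atp2a1 encodes SERCA1, the calcium pump of fast fibres, and Ckm the muscle creatine kinase that buffers ATP. Atp2a1 (chr7:126045013-126063423, minus strand) was at 7.85, 8.46 and 7.33 CPM in control, 15.5, 97.8 and 0.22 in NFKO, 0.23 and 0.22 in AnkGKO, and 0.070, 46.2 and 0.16 in DKO. Its 3 control libraries were the closest of any of the 9 genes, at 7.88 ± 0.563 CPM (SD, n = 3). Ckm (chr7:19138701-19157965, plus strand) was at 4.63, 9.66 and 5.05 CPM in control, 12.0, 52.6 and 0.019 in NFKO, 0.27 and 0.087 in AnkGKO, and 0.12, 28.1 and 0.13 in DKO. The 0.019 CPM of NFKO 3 is a single read.

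Acta1, Ttn and Mylpf kept a measurable level in the 5 low libraries, where the other 6 genes did not exceed 0.27 CPM. Acta1 rested there on 33 to 72 reads, Ttn on 33 to 43 and Mylpf on 40 to 80. Together these 3 genes, grouped after their values were seen, held 71.8 to 85.9% of the reads on the 9 genes in those 5 libraries and 32.4 to 43.3% in the other 6. Every one of the 9 overlaps an annotated gene on the opposite strand, for example Mylpf with Tbc1d10b over 757 bases and with Septin1 over 523, and Acta1 with the long non-coding RNA Gm29773 over 650. The library kit marks strand, and the setting used for counting is not given in the sources used here, so reads of such partners were not told apart.

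Set per kilobase of the canonical transcript, so that genes can be compared, Acta1 was the most abundant of the 9 in both libraries with most muscle RNA. In NFKO 2 the levels were 69.5 CPM per kb for Acta1, 37.4 for Tnnc2, 31.4 for Mylpf, 28.7 for Tnnt3, 23.6 for Atp2a1, 12.95 for Ckm, 7.10 for Myh1, 2.37 for Myh4 and 0.67 for Ttn. In DKO 2 they were 27.2 CPM per kb for Acta1, 18.4 for Mylpf, 16.6 for Tnnc2, 13.5 for Tnnt3, 11.1 for Atp2a1, 6.93 for Ckm, 5.13 for Myh4, 1.21 for Myh1 and 0.12 for Ttn. The order of the heavy chains was thus opposite in these 2 libraries.

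The fast myosins were not in 1 fixed ratio. Of the reads on Myh4, Myh1 and Myh2, Myh4 held 88.95% in NFKO 1 (95% exact binomial interval 86.8 to 90.9%, 959 reads), 76.3% in Control 3 (71.3 to 80.7%, 333 reads), 75.5% in Control 1 (70.05 to 80.5%, 278 reads) and 66.3% in DKO 2 (64.2 to 68.4%, 1972 reads). It held 39.2% in Control 2 (35.04 to 43.6%, 525 reads) and 12.5% in NFKO 2 (11.7 to 13.4%, 5859 reads). In NFKO 2, Myh1 held 47.5% (46.2 to 48.8%) and Myh2 held 40.01% (38.75 to 41.3%). These intervals do not overlap between NFKO 2 and any of the other 5 libraries for Myh4, and they cover reads, not mice. The low libraries had 5 to 15 reads on the 3 genes together, too few for a share. The heavy chains share sequence, since 14.1% of the 50-base words of Myh4 and 16.7% of those of Myh1 occur in another gene, most often in each other or in Myh2. At 100 bases the shares were 2.40 and 5.52%, so part of their reads could be assigned to a neighbour or discarded. Of the other 7 members, none shared more than 0.61% of its 50-base words.

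**Figure D2:**
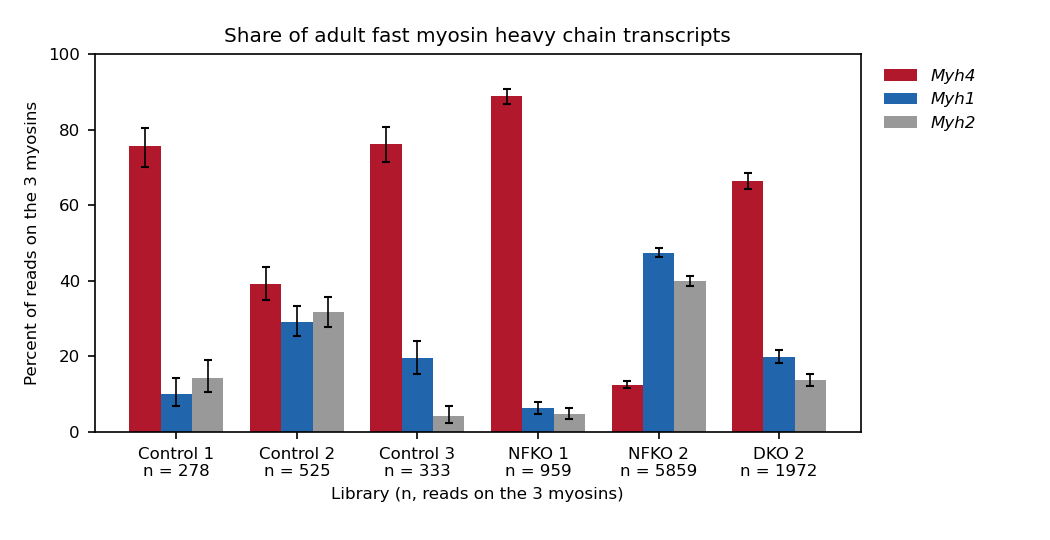
Percent of the reads on Myh4, Myh1 and Myh2 that each gene held in the 6 libraries with over 100 such reads, with exact binomial 95% intervals as error bars. Myh4 held the largest share in Control 1, Control 2, Control 3, NFKO 1 and DKO 2, and the smallest, 12.5%, in NFKO 2.

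The slow or oxidative muscle genes Mb, Csrp3 and Myl2 were highest in NFKO 2. This was not particular to such genes, since 66 of the 95 other skeletal muscle genes tested, described below, were highest there. Of the 10 slow contractile genes among them, 8 were. Myh7b was highest in NFKO 1 (21.0 CPM against 8.42 in NFKO 2) and Tnni1 in AnkGKO 1 (8.31 against 2.27). Mb, the myoglobin that stores oxygen in oxidative fibres, was at 57.0 CPM in NFKO 2, 10.8 in DKO 2 and at most 5.17 in the other libraries. The read ratio of Mb to Acta1 was 0.50 in NFKO 2, 0.24 in DKO 2, 0.27 in Control 2, 0.17 in Control 1, 0.096 in Control 3 and 0.086 in NFKO 1. In the libraries with few muscle reads it reached 0.40 in AnkGKO 1, on 18 and 45 reads, and 0.33 in DKO 3, on 24 and 72. Csrp3, a Z-disc protein of slow and cardiac muscle, was at 4.93 CPM in NFKO 2 and 0.86 in DKO 2, and Myl2, the slow regulatory light chain, at 5.53 and 0.49. Sln, the sarcolipin that restrains SERCA, went the other way, with 2.62 CPM in DKO 2 and 0.077 in NFKO 2. These genes outside the naming rule (Mb, Csrp3, Myl2, Sln) were picked after their values were seen.

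Mean levels of the 9 genes by genotype were ordered NFKO, DKO, control and AnkGKO for 8 genes, and for Myh4 NFKO and DKO were at the same 10.2 CPM. Acta1 averaged 44.6 ± 61.2 CPM in NFKO, 15.7 ± 25.2 in DKO, 11.6 ± 6.63 in control (SD, n = 3 each) and 0.82 ± 0.15 in AnkGKO (SD, n = 2). NFKO, DKO and control, neighbours in that order, did not differ beyond their spread. For each of the 9 genes the SD in NFKO and in DKO was as large as the mean or nearly so. Within genotypes the SD of log2 CPM (with 0.5 added) was 1.53 for Mylpf to 2.72 for Atp2a1, against a median of 0.13 over all genes tested. For each of the 9, at most 36 genes, 0.205% of those tested, varied more within genotypes.

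Differences between genotypes were fitted with edgeR over all genes. None of the 9 genes passed an adjusted p of 0.05 with a log2 fold change of 0.6 in any of 5 pairwise comparisons, and none had an unadjusted p under 0.05. The same edgeR fit called 0.365% of all genes tested in NFKO against control, 0.165% in AnkGKO against control, 0.0228% in DKO against control, 0.615% in DKO against NFKO and 0.171% in DKO against AnkGKO. Tested for any difference among the 4 genotypes, edgeR called 0 of the 9, with none under an unadjusted p of 0.05, beside 0.723% of all genes. In that test DESeq2 called 0 of the 9, with 1 under an unadjusted p of 0.05, beside 1137 of all 17557 genes. DESeq2 also called 0 of the 9 in each pairwise comparison, and it gave Myh1 no adjusted p. Under an unadjusted p of 0.05 it had 6 in AnkGKO against control, 7 in DKO against AnkGKO and none in the others. Of all 17557 genes, DESeq2 called 159 in NFKO, 102 in AnkGKO and 44 in DKO against control. It called 418 in DKO against NFKO and 99 in DKO against AnkGKO. Limma on the deposited normalized values called 0 as well, with 1 under an unadjusted p of 0.05 in AnkGKO against control and none in the others. Of all genes, limma called 4 to 135, depending on the comparison.

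**Figure D3:**
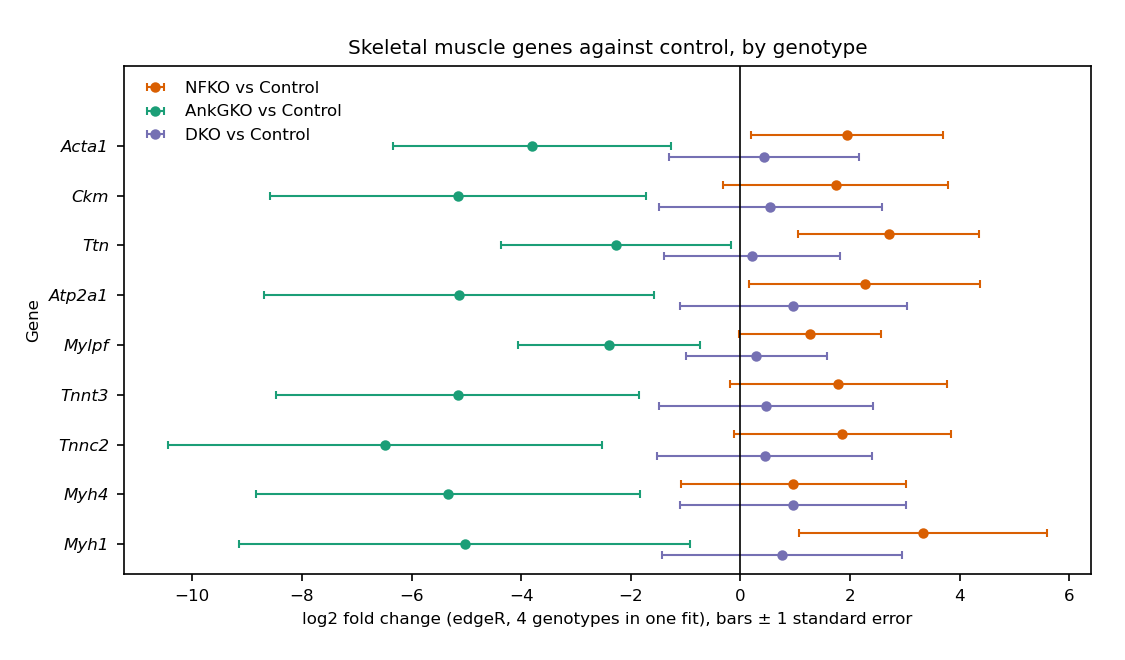
Log2 fold change against control of each of the 9 genes in NFKO, AnkGKO and DKO, from edgeR over the 11 libraries, with bars of 1 standard error. The values lie between 0.96 and 3.34 in NFKO, between -6.49 and -2.27 in AnkGKO and between 0.21 and 0.97 in DKO, and none passed the adjusted test.

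In NFKO against control the log2 fold changes of the 9 genes had a median of 1.86 (0.96 for Myh4 to 3.34 for Myh1, standard errors 1.29 to 2.26), beside a median of -0.0050 over all genes. Acta1 was at 1.94 (standard error 1.76, adjusted p = 0.946 by edgeR). That value rested on NFKO 2, and without this library Acta1 was at -0.28, Myh1 at -1.54 and the median of the 9 at -0.11. With the replicate number as a block the median was 0.34 with 6 of the 9 above 0 and none called. Atp2a1 and Myh4, at 2.26 and 0.96, were below 0 in that fit and when limma was run on the deposited normalized values.

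In DKO against control the median was 0.46 (0.21 for Ttn to 0.97 for Atp2a1, standard errors 1.29 to 2.19), beside -0.00064 over all genes. Acta1 was at 0.43 (standard error 1.73, adjusted p = 0.966 by edgeR). Without DKO 2 Acta1 was at -3.31, Myh1 at -4.61 and the median of the 9 at -5.22, with none called. With the replicate block Acta1 was at -1.13, and on the deposited normalized values at -1.41. In DKO against NFKO the 9 had a median of -1.33, which was -7.23 without DKO 2 and 0.65 without NFKO 2. In DKO against AnkGKO the median was 5.69, which was -0.054 without DKO 2.

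In AnkGKO against control the median was -5.13 (-6.49 for Tnnc2 to -2.27 for Ttn, standard errors 1.67 to 4.11), beside -0.0051 over all genes. All 9 genes were lower in both AnkGKO libraries than in each of the 3 control libraries, a pattern that 12.3% of all genes tested showed. Acta1 was at -3.81 (standard error 2.53, adjusted p = 0.998 by edgeR) and Atp2a1 at -5.13 (standard error 3.56, adjusted p = 0.998 by edgeR). When the 2 AnkGKO and 3 control libraries were fitted alone, so that the spread of NFKO and DKO did not enter, edgeR called 3 of the 9, against 0.142% of 16867 genes. These were Atp2a1 (log2 fold change -5.13, standard error 0.20, adjusted p = 0.000134 by edgeR), Myh4 (-5.33, standard error 0.47, adjusted p = 0.0198 by edgeR) and Ttn (-2.27, standard error 0.27, adjusted p = 0.0443 by edgeR). NFKO 3, DKO 1 and DKO 3 had levels of the 9 genes as low as the AnkGKO libraries, so the low level was not found in AnkGKO alone.

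Other skeletal muscle genes were followed in 8 lists with 98 genes, of which 95 were tested. In the 3 comparisons with control edgeR called 1 of the 95, Tnni1, higher in AnkGKO. In the same comparison 41 of the 95 lay lower in both AnkGKO libraries than in all control libraries, beside the 12.3% of all genes tested. Of the 95, 66 were highest in NFKO 2 (69.5%, beside 12.5% of all genes) and 49 had NFKO 2 and DKO 2 as their highest pair (51.6%, beside 2.89%).

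Fast contractile genes followed the 9 most closely. The 7 genes of this list summed to 100 CPM in NFKO 2, 40.7 in DKO 2, 8.40 to 19.1 in Control 1 to 3 and NFKO 1, and 3.36 to 4.43 in the low libraries. Tnni2, the fast inhibitory troponin, was at 24.98 CPM in NFKO 2, 11.6 in DKO 2 and 0.16 to 0.35 in the low libraries. Actn3, the alpha-actinin of fast Z-discs, kept 1.36 to 1.67 CPM in the low libraries and was highest, 11.7 CPM, in DKO 2. Mybpc2, the fast myosin-binding protein C, was at 6.88 CPM in NFKO 2 and 0.93 to 1.26 in the low libraries.

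The 30 genes of sarcomere scaffolds, the 16 of the triad and excitation and the 15 of metabolism included genes with high levels in every library. Cap2, an actin-binding protein also found in brain, was at 42.8 to 58.5 CPM in all 11 libraries, and Pygm, the muscle glycogen phosphorylase, at 144 to 205. Tmem38a, a cation channel of the reticulum, was at 48.6 to 57.5 CPM. The sums of the 3 lists were 87.2 to 316, 83.8 to 158 and 278 to 412 CPM, each highest in NFKO 2. Smyd1, a chaperone of myosin assembly, was at 8.54 to 21.5 CPM, Jph1, which ties the reticulum to the membrane, at 12.9 to 19.8, Adssl1, of the purine cycle, at 69.9 to 104 and Phkg1, a subunit of phosphorylase kinase, at 21.7 to 30.8. None of these had NFKO 2 and DKO 2 as its highest pair. Ldb3, a Z-disc protein, was at 28.1 CPM in NFKO 2 and 10.4 to 18.7 elsewhere, and Cmya5, Srl, Casq1 and Eno3 were also highest there, at 21.5, 20.5, 16.3 and 23.5 CPM. Other genes of the same lists followed the 9 more closely. Neb, the nebulin that lines the thin filament, was at 29.99 CPM in NFKO 2, 8.92 in DKO 2 and 0.60 to 2.26 in the low libraries. Ryr1, the calcium release channel, was at 20.6, 7.52 and 0.77 to 1.403 CPM in the same order. Xirp2, a protein of the attachment to the membrane, was at 19.0 CPM in NFKO 2, 3.18 in DKO 2, 0.023 in DKO 1, 0.055 in DKO 3 and without a read in NFKO 3 and AnkGKO 1 and 2.

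Slow contractile genes varied less in sum. Of the 10, 8 were highest in NFKO 2, 1 of them with DKO 2 next. Mybpc1, Myl2, Tnnt1, Csrp3 and Tnnc1 had a Pearson's r of 0.66 to 0.79 with the mean profile of the 9 over the 11 libraries. It was 0.525 for Ankrd2, 0.26 for Myh7, -0.21 for Tnni1 and -0.26 for Myh7b. Myl3, with a mean under 0.5 CPM, was not ranked. The 10 summed to 68.0 CPM in NFKO 2 and 16.6 to 37.6 elsewhere, with Myh7b at 21.0 CPM in NFKO 1 and Myh7 at 10.6 in NFKO 2. Tnni1, the slow inhibitory troponin (chr1:135707172-135738727, plus strand), was at 8.31 and 7.73 CPM in AnkGKO and at 0.63 to 2.27 in the other 9 libraries. Its log2 fold change in AnkGKO against control was 3.29 (standard error 0.45, adjusted p = 0.0137 by edgeR), and in DKO against AnkGKO -3.09 (standard error 0.45, adjusted p = 0.0228 by edgeR). Myh7b was also above control in AnkGKO, at 14.98 and 13.5 CPM against 6.08 to 8.11, but it was high in NFKO 1 and NFKO 3 too and was not called by edgeR (log2 fold change 1.02, standard error 0.31, adjusted p = 0.536), whereas DESeq2 called it. Tnnt1 was at 0.39 and 0.33 CPM in AnkGKO and Tnnc1 at 0.93 and 0.76. Without either AnkGKO library, or without any one control library, Tnni1 was not called against control. Without either AnkGKO library, or without DKO 1, it was not called between DKO and AnkGKO. Cox7a1, a muscle and heart subunit of cytochrome oxidase, was lower in DKO than in NFKO (log2 fold change -1.12, standard error 0.21, adjusted p = 0.0317 by edgeR). It was at 1.61, 2.83 and 2.51 CPM in DKO and at 4.38, 5.82 and 4.91 in NFKO, where it was not lowest in the library with fewest muscle reads. The call was lost with only the libraries compared, with the replicate block, and without any one of Control 2, NFKO 1, NFKO 2, NFKO 3, DKO 1 and DKO 3.

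The lists of endplate, muscle precursor and developmental muscle genes were low or of similar sum in all libraries. Of their tested genes, 3 of 6, 3 of 7 and 1 of 4 had NFKO 2 and DKO 2 as their highest pair, beside 2.89% of all genes. The endplate sum was 24.4 to 29.6 CPM and came mostly from Dok7, an adaptor of the receptor kinase MuSK, at 21.6 to 26.9, while the receptor subunits Chrnb1 and Chrne and the anchoring protein Rapsn were at 0.60 to 1.64, 0.12 to 0.56 and 0.61 to 1.35. With the mean profile of the 9, Chrnb1 had a Pearson's r of 0.85, Rapsn of 0.49 and Dok7 of -0.55. Muscle precursor genes summed to 0.37 to 1.82 CPM, highest in DKO 2 (1.82) and NFKO 2 (1.31). Of the regulators of the muscle lineage, Myog was at 0.51 CPM in DKO 2 and 0.25 in NFKO 2 and Myf6 at 0.49 and 0.39, while neither exceeded 0.073 elsewhere. Pax7, the factor of satellite cells, was at 0 to 0.048 CPM in all libraries. Developmental and specialised myosins summed to 1.48 to 2.27 CPM. Myh3 and Myh8, the embryonic and perinatal heavy chains, were at 0.16 to 0.70 and 0.12 to 0.62 CPM. Myh3 was highest in DKO 1, at 0.70 CPM. Myh8 was highest in NFKO 2 (0.62) and DKO 2 (0.49), the highest pair of 8 of the 9 genes. At such low levels their correlation with the 9 was not computed.

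Over all genes with a mean of at least 0.5 CPM, 14659 in number, the profile most like the mean of the 9 over the 11 libraries was that of Tnni2 (Pearson's r of 0.99). Next came Myoz1, Mybpc2, Tcap, Pgam2, Xirp2, Neb, Ryr1, Myl1, Mylk2 and Apobec2, with r from 0.98 down to 0.93. All of these were in the muscle lists except Apobec2, a deaminase family member. The 9 correlated with each other at a median of 0.97 over 36 pairs, with Myh4 and Myh1 the least alike pair (0.79). All these correlations share the same 11 libraries and their depth. Of the 12 most alike genes, 11 were still among the first 12 without NFKO 2, and 10 without DKO 2.

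Close relatives of the 9 that are expressed in brain did not separate the libraries in this way. Atp2a2, the widely expressed SERCA2, was at 998 to 1201 CPM and Ckb, the brain creatine kinase, at 1233 to 1561. Actc1, the cardiac actin, was at 1.47 CPM in DKO 2, 0.58 in NFKO 2 and at most 0.21 elsewhere.

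Markers of other tissues differed between the 2 libraries with most muscle RNA. Adipose genes summed to 39.4 CPM in DKO 2 and to 3.997 to 7.52 in the other 10 libraries. There the adipokine Cfd was at 15.4 CPM (at most 0.71 elsewhere) and Adipoq, or adiponectin, at 2.34 (at most 0.35). Genes of fibroblasts and meninges summed to 1206 CPM in NFKO 2, with Col1a1 at 368, against 361 in DKO 2, 360 in NFKO 3 and 81.9 in DKO 3. Smooth muscle genes summed to 208 CPM in NFKO 2 and 44.7 to 128 elsewhere, with Acta2 at 73.9 and Myh11 at 53.2. Tendon, cartilage and bone genes summed to 119 CPM in NFKO 2 and 41.4 to 93.1 elsewhere, with Fmod, the fibromodulin of tendon, at 79.2 and 9.75 to 50.7. Bglap, the osteocalcin of bone, was at 3.72 CPM in NFKO 2, 0.72 in DKO 2 and at most 0.036 elsewhere. The part of these tissues in the levels of the 9 genes was not tested.

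Other markers did not divide the libraries as the 9 genes did. Cardiac muscle genes summed to 4.01 to 18.2 CPM, highest in Control 1, and hemoglobin and other blood genes to 185 to 431.

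The label of cerebellar tissue was set against its own markers. Purkinje cell genes summed to 425 CPM in NFKO 1 and 370 in Control 1, and to 63.0 to 123 in the other 9 libraries. Pcp2, whose promoter drives the Cre, was at 28.3 and 26.3 CPM in those 2 libraries and at 0.093 to 2.14 in the others. Gabra6, a receptor subunit of cerebellar granule cells, was at 84.2 CPM in Control 1, 59.0 in NFKO 1 and 0.019 to 4.41 in the others. The 12 Hox genes of groups 6 to 9, which mark spinal levels of the neuraxis, summed to 395 to 615 CPM in all 11 libraries, with Hoxb8 at 167 to 265. Slc5a7, the choline transporter of cholinergic neurons such as motor neurons, was at 96.1 to 273 CPM, and the motor neuron list it belongs to summed to 219 to 624. The only gene of a non-muscle list that edgeR called against control was Uts2, a peptide of motor neurons, at 22.8 to 27.0 CPM in DKO and 2.36 to 5.67 in control (log2 fold change 2.60, standard error 0.27, adjusted p = 0.00818 by edgeR). Granule cell genes summed to 680 CPM in Control 1, 572 in NFKO 1 and 71.7 to 133 in the other 9 libraries. NFKO 2 and DKO 2, with the most muscle RNA, were at 130 and 77.9 CPM for that list.

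**Figure D4:**
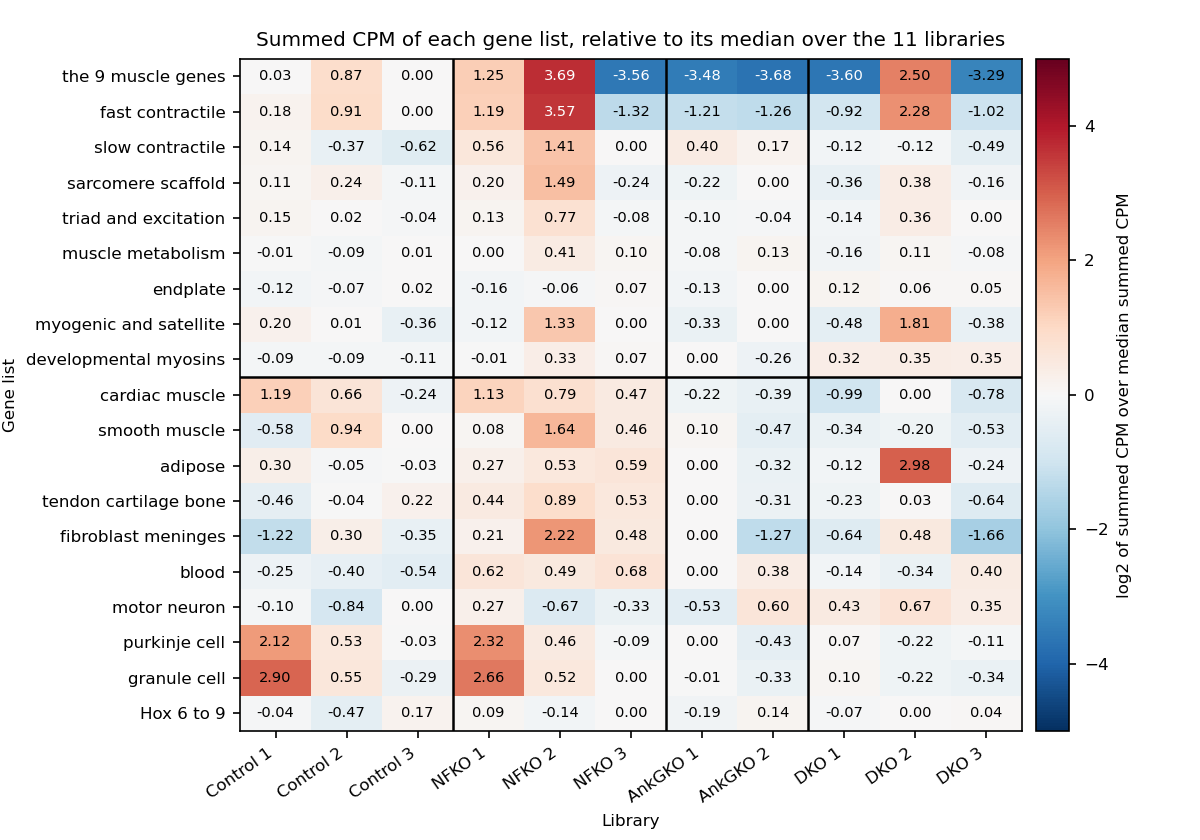
Summed CPM of the 9 genes, of 8 further skeletal muscle lists (above the horizontal line) and of 10 lists of other cell types, as the log2 ratio to the median of that list over the 11 libraries. Only the 9 genes and the fast contractile list are at or below -0.92 in each of NFKO 3, AnkGKO 1, AnkGKO 2, DKO 1 and DKO 3, and adipose genes stand out in DKO 2 (2.98).

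Reads on genes numbered 38890851 to 55822361 per library, with 50126172 in NFKO 2 and 47428701 in AnkGKO 2, the libraries with the most and the fewest muscle reads. The share of reads without a unique position was 32.5 to 34.3%. Ank3, the gene of AnkG, was at 353 to 407 CPM in control and NFKO libraries and at 156 to 200 in AnkGKO and DKO, so the levels of the deleted gene matched the labels there, and the 5 libraries with few muscle reads include both NFKO 3, with Ank3 at 385 CPM, and AnkGKO and DKO libraries. Nfasc was at 559 to 953 CPM and did not tell NFKO from control.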

How the data were processed

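Polyadenylated RNA of 11 libraries was sequenced. The authors trimmed the reads with Trimmomatic 0.39, aligned them to GRCm39 with STAR 2.7.11a and deposited raw read counts per gene. They also deposited a normalized signal, in which each library's counts are scaled by its own size factor (0.815 to 1.16). The labels give single-end reads of 100 bp, and the methods of the study paired-end reads. The 5 summary lines of the count table were left out.

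The genes with at least 10 counts were fitted with edgeR 4.0.16 in R 4.3.3 (TMM, robust quasi-likelihood, 4 genotypes in 1 model, Benjamini-Hochberg adjustment over all genes), and called at an adjusted p under 0.05 and a log2 fold change of 0.6. DESeq2 1.42.0, limma 3.58.1 on log2(normalized value + 1), other filters and scalings, fits of only the compared libraries, a replicate block and leaving out each library were the alternatives. The steps were tested on simulated data. Likeness was Pearson's r of log2(CPM + 0.5).

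The 9 genes and all gene lists were chosen with earlier results of these data known. Named are the 9, Nfasc and Ank3, the 4 genes of each muscle list and 2 of each other list with the highest mean CPM as far as they were needed, the 12 most alike genes, called list genes and close relatives. Others were picked after their values were seen, and some genes are not reported here.

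Positions and shared sequence came from GENCODE M39 on GRCm39, promoters from RefSeq on GRCm38.p6. The main fit has no block. Replicate numbers were taken to pair NFKO with control in the blocked alternative, since deviations from the genotype means correlated at 0.547, 0.444 and 0.216 for replicates 1, 2 and 3.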

Additional observations from a re-analysis of the deposited data

How the results depend on the processing

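The 6 counts of the 9 genes called stayed at 0 under every alternative run, except AnkGKO against control with only the libraries compared, where 3 were called and Ttn, Atp2a1 and Myh4 were at -2.27, -5.13 and -5.33 on the log2 scale, nearly as before. The fit differs in that NFKO and DKO libraries do not enter. DESeq2 called 1 other muscle gene in NFKO (Myh7b), 2 in AnkGKO (Myh7b and Tnni1) and 2 in DKO (Cox7a1 and Slc2a4) against control, in place of 0, 1 and 0. Of all 17557 genes it called 159, 102 and 44 in these comparisons, in place of 64, 29 and 4 by edgeR, and the cause was not tested. Over the edgeR fits without 1 library each, the count of other muscle genes was 0 to 1 in AnkGKO and 0 to 1 in NFKO, where Myh7b was called without NFKO 2. A fit without 1 AnkGKO library assumes that the other varies like the remaining genotypes.

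The replicate block changed no call of the 9 genes and left the direction in AnkGKO. It reversed the log2 fold change of Atp2a1 (-0.044) and Myh4 (-0.49) in NFKO, and of Acta1 (-1.13), Ttn (-1.15), Atp2a1 (-2.05), Myh4 (-1.46) and Myh1 (-1.58) in DKO. Outside NFKO against control, the deviations of same-numbered libraries correlated at -0.424 to 0.356. There the numbers are only shared names, although the block was fitted over all 11 libraries. With limma on the deposited normalized values, the reversed folds were Atp2a1 (-0.14) and Myh4 (-0.80) in NFKO, and Acta1 (-1.41), Ttn (-1.07), Atp2a1 (-3.10), Myh4 (-4.44) and Myh1 (-1.84) in DKO. This scale takes the mean of logs, in which 1 high library weighs less.

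Without 1 library each, the log2 fold change against control in NFKO ranged from -0.28 to 2.53 for Acta1, from -0.0090 to 2.85 for Atp2a1 and from -1.54 to 4.01 for Myh1, with the lowest values without NFKO 2. In DKO it ranged from -3.31 to 0.99 for Acta1, from -2.51 to 0.74 for Ttn, from -5.99 to 1.55 for Atp2a1, from -10.97 to 1.55 for Myh4 and from -4.61 to 1.41 for Myh1, with the lowest values without DKO 2. The value for Myh4 there is against 2 libraries without a read and depends on the prior count of the fit, so it is no bound. In AnkGKO no fold of these 5 genes changed sign. Of the 12 most alike genes, 9 to 12 remained without 1 library and 11 with a pseudocount of 2. The ratio of the highest to the lowest summed level was 165, 166 on the deposited normalized values and 177 without TMM. In the low libraries most of the 9 genes had under 15 reads, too few to compare those libraries. Acta1, Ttn and Mylpf had 33 to 80 reads there, and differences among the low libraries were not tested.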
